A study of Mus musculus with 28 samples.

Results

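The 8 B6 controls of batch 2 in a study of mouse striatum form 2 groups by age, and the comparison described here sets B6 controls 1 to 4, killed at 63 days, against B6 controls 5 to 8, killed at 61 days. These 8 arrays were taken by their titles and ages from 28 arrays in all. All 8 mice were C57BL/6J (B6) and homozygous for the B6 allele of the region that is replaced by A/J sequence in the study's congenic strain. All were drug-naive, none was a littermate of the congenic mice, and each group held 2 females and 2 males. Left and right striatal punches were pooled per mouse, and each array is one mouse. The 8 homozygous congenic mice of the same batch, aged 52 or 57 days, serve below to define which genes follow liver RNA. Some of their values are also given beside those of the B6 controls. They enter the alternative fits to all arrays of batch 2 and, with batch 1, the fit to all 28 arrays. No difference from the homozygous mice or from batch 1 is tested. Mice were housed as same-sex littermates, and the labels do not say which mice shared a litter or cage. Age, litter, cage and array order therefore cannot be told apart between the age groups, and p-values cover only the spread between the mice in each fit.

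The striatum is the input nucleus of the basal ganglia, and most of its neurons are GABAergic spiny projection neurons. Direct-pathway spiny neurons carry the dopamine receptor Drd1 with the peptides Tac1 and Pdyn, and indirect-pathway ones carry Drd2 with Penk. Hepatocytes make most plasma proteins, such as albumin and apolipoproteins, and metabolic enzymes of the cytochrome P450 families. Neurons and glia make few of these, with exceptions such as transferrin (Trf) in oligodendrocytes and angiotensinogen (Agt) in astrocytes. Values are the deposited log2 expression values per gene, differences are 63 minus 61 days on that scale, and 19938 genes were tested. A gene was called at a Benjamini-Hochberg adjusted p under 0.05 by limma with sex as a term. In whole tissue, fewer cells of a type and less RNA per cell cannot be told apart. Array medians lay between 7.47 and 7.54, highest on B6 control 1. The SD over all clusters was 1.93, 1.95, 1.96 and 1.97 on controls 1 to 4. On controls 5 to 8 it was 1.97, 1.97, 1.98 and 1.97. Dim and bright values were thus closest together on control 1. The part of this in the directions of dim and bright gene lists was not tested. The spiny neuron marker Ppp1r1b was between 11.51 and 12.18 and Penk between 13.20 and 13.63 on the 8 arrays.

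The age groups differed most in hepatocyte transcripts. The mean of 68 hepatocyte genes was 10.51, 8.39, 9.27 and 6.96 in B6 controls 1 to 4, against 6.93, 6.60, 6.59 and 6.49 in B6 controls 5 to 8. B6 controls 1 and 3, a female and a male, were far above the other arrays, control 2 was next, and control 4 lay just above the highest array at 61 days. This gave 8.78 ± 1.49 (SD, n = 4) at 63 days and 6.65 ± 0.19 (n = 4) at 61 days. All 68 genes were highest in B6 control 1, and all 68 were second highest in B6 control 3. The 8 homozygous congenic mice spanned 6.81 to 9.05. In batch 1 this mean lay between 7.57 and 7.74, but ComBat had been run on the batches before deposit, so levels are not comparable between them.

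**Figure D1:**
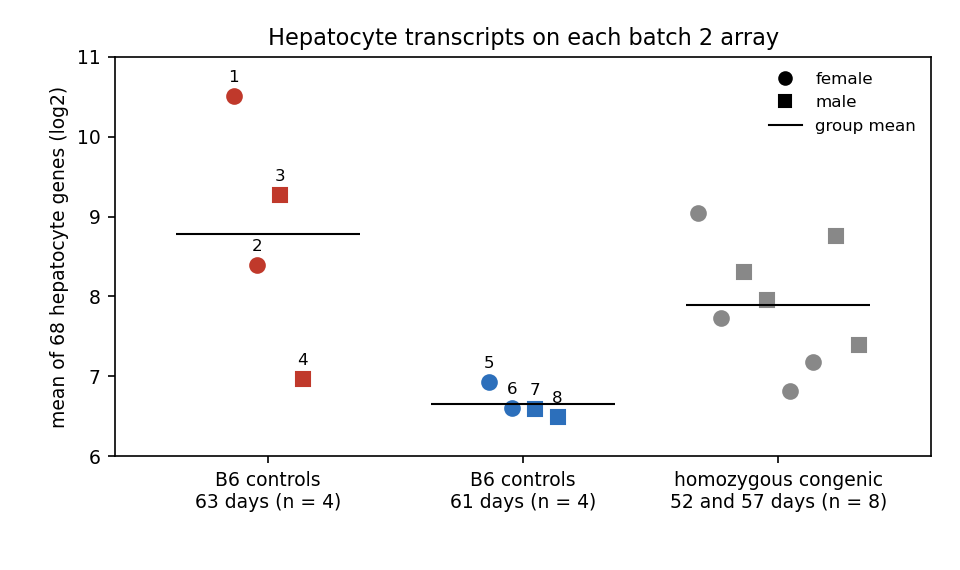
Mean log2 value of 68 hepatocyte genes on each of the 16 arrays of batch 2, with B6 controls numbered, females as circles, males as squares and a bar at each group mean. At 63 days the arrays ran from 6.96 to 10.51, while at 61 days all 4 lay between 6.49 and 6.93.

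Single hepatocyte genes, like their mean, were highest on control 1 and second highest on control 3. Albumin (Alb), the main plasma protein, was at 11.40, 11.17, 11.28 and 10.35 at 63 days, against 10.34, 9.85, 9.66 and 9.49 at 61 days. Every array at 63 days was above every array at 61 days, though control 4 exceeded control 5 by little. The difference was 1.21 (SE 0.20, adjusted p = 0.378). Apolipoprotein A-I (Apoa1), the main protein of high-density lipoprotein, was at 12.01, 10.70, 11.52 and 8.81 at 63 days and at 8.75, 8.32, 8.45 and 8.11 at 61 days. The ethanol-oxidising cytochrome Cyp2e1 was at 11.41, 9.52, 10.56 and 7.80 at 63 days and at 7.38, 6.84, 7.16 and 6.77 at 61 days. In both genes controls 1 to 3 stood well above the rest. The fatty acid binding protein Fabp1 was at 10.72, 9.16, 9.77 and 6.80 at 63 days, against 6.80, 6.08, 6.08 and 5.85 at 61 days, so control 4 was level with control 5. Cps1, which starts the urea cycle, was at 11.32, 9.03, 9.95 and 7.21 at 63 days and 7.20, 6.71, 6.72 and 6.64 at 61 days. Apoa2 was at 11.80, 10.59, 11.19 and 8.71 at 63 days and 8.44, 7.91, 8.06 and 8.00 at 61 days. The differences were 2.36 for Apoa1 (SE 0.57), 2.47 for Apoa2 (SE 0.53), 2.79 for Cyp2e1 (SE 0.64), 2.91 for Fabp1 (SE 0.64) and 2.56 for Cps1 (SE 0.68). None of them was called.

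All 34 secreted hepatocyte proteins and all 34 hepatocyte enzymes were higher at 63 days, with median differences of 2.36 and 2.28. Each of the 68 had an unadjusted p under 0.05, where 13.0% of all genes did, and 0 of the 68 were called. In 39 of them the age groups did not overlap, where 6.51% of all genes had age groups that did not overlap. The difference was largest for the carboxylesterase Ces1c, at 3.03, and for Fabp1, and smallest for Cyp2d9, at 0.49, A1bg, at 0.68, and Trf, at 0.75. Without B6 control 1 the medians were 1.79 for the secreted proteins and 1.61 for the enzymes, and without controls 1 and 3 they were 1.11 and 0.997. With the hepatocyte mean as a covariate they were 0.0074 and -0.14. That covariate is the mean of these same 68 genes, so medians near 0 were fixed in advance and test nothing. The covariate ran from 6.96 to 10.51 at 63 days (SD 1.49) and from 6.49 to 6.93 at 61 days (SD 0.19). Its slope in the fit to the B6 controls therefore came mostly from the 63-day arrays, with control 1 the farthest out. Because the age groups did not overlap in it, differences adjusted for it, here and below, are extrapolations. They do not separate age group from hepatocyte RNA.

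Genes that follow liver RNA were defined without the 8 B6 controls. Across the 8 homozygous congenic arrays, 489 genes had a Pearson correlation of at least 0.8 with the hepatocyte mean and a slope on it of at least 0.2 log2 per log2. They included 67 of the 68 hepatocyte genes, Cyp2d9 being the exception, and 422 others, and are called liver-tracking below. These mice share the batch with the B6 controls. Of the 489, 485 were higher at 63 days and 4 lower, namely Cbr3, H2bc4, Vat1l and Gpr83, with differences of -0.13, -0.044, -0.027 and -0.0095. The median was 1.12 over the liver-tracking genes and -0.012 over all genes. Outside the hepatocyte lists the largest differences were those of paraoxonase Pon1, at 2.96, the corticosteroid carrier Serpina6, at 2.92, and the cytochromes Cyp2c67, at 2.84, and Cyp2b9, at 2.76. Another 28 genes had the opposite course in the homozygous mice, and 26 of these were lower at 63 days, with a median of -0.21.

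**Figure D2:**
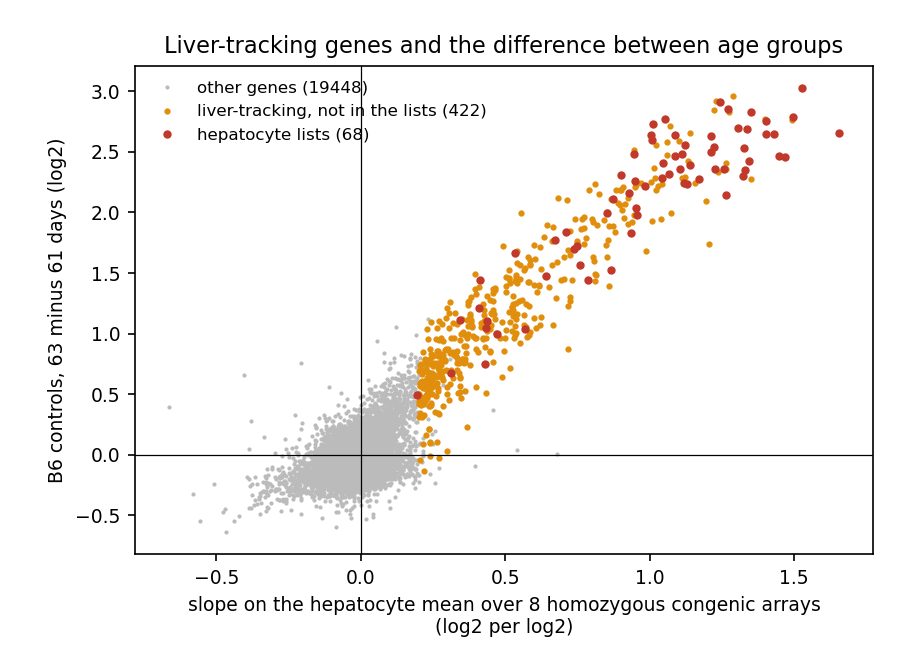
Difference between the age groups of the B6 controls (63 minus 61 days, log2) against the slope on the hepatocyte mean over 8 homozygous congenic arrays, 1 point a gene. The 68 hepatocyte genes and 422 other liver-tracking genes spread upwards to differences of 3.03, while the other 19448 genes centre near 0.

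No gene was called between the age groups. The smallest adjusted p was 0.378 among 19938 genes, while 2585 genes, or 13.0%, had an unadjusted p under 0.05 by limma. Of these 1260 were higher at 63 days (6.32% of the genes tested) and 1325 lower (6.65%). In a fit of the 13418 genes of mean at least 7 alone, 554 were higher and 1116 lower at that p. The balance of directions therefore differed with brightness. Age groups that did not overlap were seen in 647 genes higher (3.25%) and 651 lower (3.27%) at 63 days. Over the 19448 genes that are neither hepatocyte nor liver-tracking, age groups did not overlap in 464 higher and 651 lower genes. A fit of those 19448 genes alone called 0, with 2581 at an unadjusted p under 0.05 (13.3%; 5.33% higher and 7.94% lower). With the hepatocyte mean as a covariate 0 genes were called and 981 had an unadjusted p under 0.05 (4.92%; 2.70% higher and 2.22% lower). A fit to all 28 arrays, in which the spread comes from all groups, called 213 higher and 20 lower genes. Of those 233, 56 were hepatocyte genes, 133 others were liver-tracking, and 44 were neither (24 higher, 20 lower). The hepatocyte mean spanned only 7.57 to 7.74 in batch 1, against an SD of 1.49 at 63 days. The pooled spread therefore understates that of liver genes at 63 days, and their p-values in this fit are too small.

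The first principal component of the 8 arrays held 81.5% of the variance, with scores of 61.3, 6.65, 20.0 and -15.1 for B6 controls 1 to 4 and of -14.2, -17.6, -21.3 and -19.8 for controls 5 to 8. Control 1 and then control 3 stood apart, in the order of the hepatocyte mean. Without the hepatocyte and liver-tracking genes and the 28 of opposite course in the homozygous mice, the first component still held 62.5%. The median SD of a gene was 0.114 at 63 days and 0.0733 at 61 days, and 0.112 and 0.0728 without hepatocyte and liver-tracking genes.

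Outside the liver genes, the 8 genes of smallest p that were higher at 63 days were Rnd3, Spon2, Tmem267, Nr4a3, Olfr1410, Pate11, Dlk1 and Gm10658, none of which passed the test. Rnd3, a small GTP-binding protein that loosens actin stress fibres, was at 7.59, 7.48, 7.51 and 7.42 at 63 days and at 7.25, 7.06, 7.02 and 7.19 at 61 days. The age groups did not overlap, and the difference was 0.37 (SE 0.066, adjusted p = 0.378) and 0.28 with the hepatocyte mean as a covariate. Tmem267, which encodes a transmembrane protein, was at 9.93, 9.79, 9.88 and 10.10 at 63 days, against 9.53, 9.21, 9.56 and 9.59 at 61 days. Here control 4, low in liver RNA, was highest. The difference was 0.46 with or without that covariate. Nr4a3, a nuclear receptor induced by neuronal activity, was at 8.29, 8.53, 8.57 and 8.25 at 63 days and at 7.81, 7.97, 7.69 and 8.06 at 61 days. All 4 arrays at 63 days were above all 4 at 61 days, and the difference was 0.53 (SE 0.11, adjusted p = 0.378), 0.58 without control 1 and 0.50 with the covariate. Spon2, a secreted matrix protein, was at 7.57, 7.38, 7.11 and 7.02 at 63 days and 7.05, 7.07, 6.85 and 6.74 at 61 days, with control 4 inside the range of the 61-day arrays. The olfactory receptor Olfr1410 differed by 0.20, Pate11 by 0.27 and Gm10658 by 0.26.

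The 8 genes of smallest p that were lower at 63 days were Mir411, BC029722, Acot10, Snf8, Mir369, Macroh2a2, Sf3b6 and Birc2, and none passed the test. Snf8, a subunit of the ESCRT-II complex that sorts membrane proteins for degradation, was at 8.36, 8.48, 8.49 and 8.49 at 63 days and at 8.71, 8.68, 8.77 and 8.73 at 61 days. Control 1 was the lowest array, and the other 3 lay close together below every array at 61 days. Macroh2a2, which encodes the histone variant macroH2A2, was at 7.90, 8.02, 8.40 and 8.41 at 63 days, against 8.85, 8.57, 8.69 and 8.71 at 61 days. Its age groups did not overlap, and the difference was -0.52 (SE 0.10, adjusted p = 0.378) and -0.39 with the hepatocyte mean as a covariate. BC029722 was at 8.46, 8.52, 8.60 and 8.62 at 63 days and at 8.76, 8.74, 8.85 and 8.88 at 61 days. Its difference was -0.26, and that of Snf8 was -0.26. The acyl-CoA thioesterase Acot10 differed by -0.34, the splicing factor subunit Sf3b6 by -0.25 and the ubiquitin ligase Birc2 by -0.21, with no overlap of the age groups in any of these. In the fit to 28 arrays BC029722, Snf8 and Macroh2a2 were called, with adjusted p of 0.0377, 0.0470 and 0.0313. That fit pools the spread of all groups. The SD of Macroh2a2 was 0.26 at 63 days and 0.12 at 61 days, so the pooled spread may understate its spread at 63 days. For BC029722 these SDs were 0.076 and 0.068, and for Snf8 0.063 and 0.037.

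**Figure D3:**
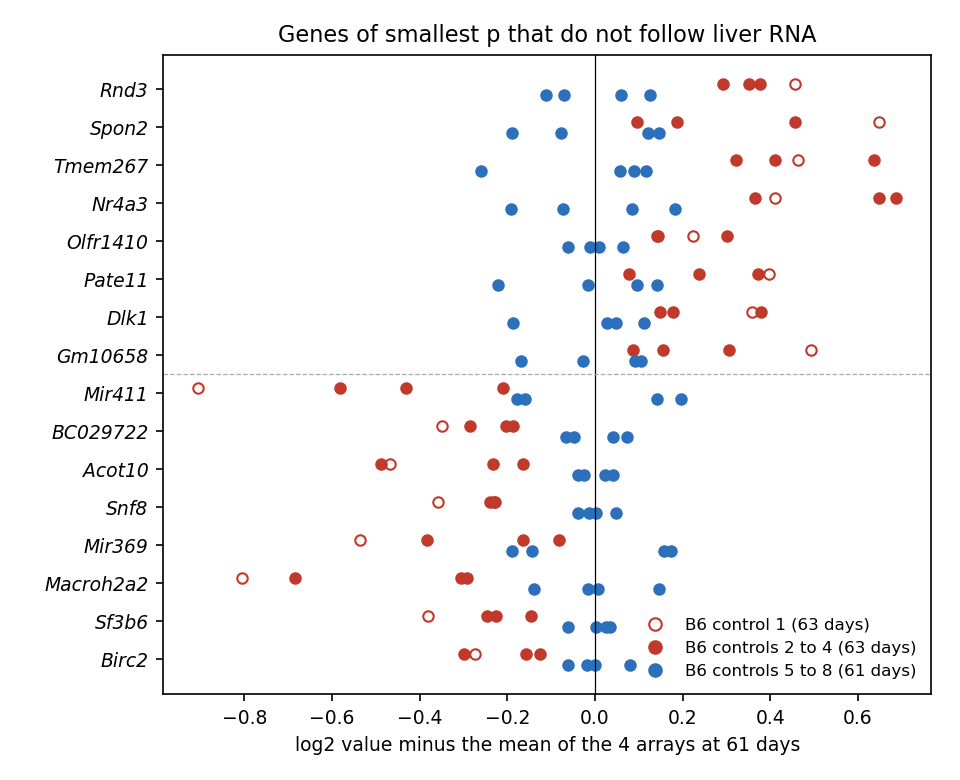
Log2 value minus the mean of the 4 arrays at 61 days for the 8 genes of smallest p higher (above the dashed line) and the 8 lower at 63 days, leaving out liver genes, with 63-day arrays in red (B6 control 1 open) and 61-day arrays in blue. The arrays of the age groups overlap in Spon2, Pate11, Gm10658 and Mir369, and no gene passed the test.

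Dlk1, Mir411 and Mir369 lie in one imprinted interval of mouse chromosome 12, in which Dlk1, Rtl1 and Dio3 are expressed from the paternal chromosome and a long run of microRNAs from the maternal one. Mir411 was at 6.65, 6.97, 7.12 and 7.34 at 63 days, against 7.38, 7.39, 7.75 and 7.69 at 61 days, and control 1 was lowest. Control 4 was just under controls 5 and 6, so the age groups did not overlap. The difference was -0.53 (SE 0.082, adjusted p = 0.378), and -0.29 with the hepatocyte mean as a covariate. Mir369 was at 6.93, 7.08, 7.30 and 7.38 at 63 days and at 7.32, 7.28, 7.64 and 7.62 at 61 days, and its age groups overlapped. The difference was -0.29 (SE 0.051). Dlk1, a transmembrane protein of the Notch ligand family, was at 8.53, 8.55, 8.32 and 8.35 at 63 days and at 8.20, 8.28, 7.98 and 8.22 at 61 days, a difference of 0.27 (SE 0.061). The mature microRNAs of these loci are shown since they are the leading microRNAs of the comparison, with the seed (bases 2 to 8) in capitals. Sequences and positions are from RefSeq on GRCm38.p6, all on the plus strand of chromosome 12. The array measures each locus with one cluster and does not separate its arms.
mmu-miR-411-5p (chr12:109710190-109710210): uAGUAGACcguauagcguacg
mmu-miR-411-3p (chr12:109710225-109710246): uAUGUAACacgguccacuaacc
mmu-miR-369-5p (chr12:109743431-109743452): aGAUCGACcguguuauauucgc
mmu-miR-369-3p (chr12:109743466-109743486): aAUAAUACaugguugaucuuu
No pair of these 4 shares a seed. From Dlk1 to Dio3 by gene order on GRCm38.p6, 48 genes were measured, of which 12 were higher and 36 lower at 63 days, with a median of -0.09. An unadjusted p under 0.05 was found for 1 higher and 7 lower genes, where 6.32% of all genes were higher and 6.65% lower at that p. The age groups did not overlap in Dlk1, Mir299a and Dio3, which were higher, and in Mir540, Mir411 and Mir376b, which were lower, where this held for 3.25% of all genes as higher and 3.27% as lower. Mir376b was at 7.12, 7.76, 7.92 and 7.99 at 63 days and at 8.06, 8.03, 8.18 and 8.05 at 61 days, and Mir379 at 6.08, 6.46, 6.66 and 7.07 at 63 days and 6.87, 6.81, 7.36 and 6.91 at 61 days, with control 1 lowest in both. Of the 40 microRNA genes 32 were lower. Without control 1 the median over the 48 genes was 0.0022, and with the hepatocyte mean as a covariate it was 0.11. The interval was looked at because Mir411, Mir369 and Dlk1 were among the leading genes, so its counts are a description chosen after the values were seen.

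Most genes of spiny neurons had their lowest value on B6 control 1, namely 18 of 18 shared, 6 of 8 direct-pathway and 8 of 8 indirect-pathway genes, and none passed the test. Here and below, the share of all genes lowest on control 1, which stood apart on the first principal component, was not counted. Drd1 was at 10.24, 10.86, 10.78 and 10.74 at 63 days and at 10.78, 10.55, 10.71 and 10.84 at 61 days, and Drd2 at 11.13, 11.76, 11.77 and 11.63 at 63 days and 11.71, 11.50, 11.74 and 11.72 at 61 days. Control 1 was the lowest array in both genes, and controls 2 to 4 lay among the 61-day arrays or just above them. The peptide precursor Tac1 was at 10.88, 11.64, 11.53 and 11.58 at 63 days, against 11.66, 11.48, 11.61 and 11.66 at 61 days, and Penk at 13.20, 13.63, 13.56 and 13.50 at 63 days, against 13.57, 13.43, 13.55 and 13.60 at 61 days. Ppp1r1b, the protein phosphatase inhibitor DARPP-32, was at 11.51, 12.13, 12.15 and 12.01 at 63 days and at 12.16, 11.98, 12.18 and 12.18 at 61 days. Pdyn, the dynorphin precursor, was at 7.86, 8.42, 8.37 and 8.11 at 63 days and 8.38, 8.10, 8.14 and 8.09 at 61 days. The differences were -0.063 for Drd1, -0.096 for Drd2, -0.19 for Tac1, -0.067 for Penk, -0.18 for Ppp1r1b and 0.015 for Pdyn, with adjusted p between 0.462 and 0.955. Without control 1 they were 0.072, 0.043, -0.019, 0.021, -0.039 and 0.15 in that order. Adora2a is not analysed here.

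Of 18 genes shared by spiny neurons all 18 were lower at 63 days, with a median of -0.16. Without control 1 the median was -0.010 with 12 lower, and with the hepatocyte mean as a covariate it was 0.074 with 0 lower. Arpp21, a cAMP-regulated phosphoprotein, was the one member with an unadjusted p under 0.05. It was at 11.13, 11.43, 11.43 and 11.58 at 63 days and 11.57, 11.56, 11.60 and 11.58 at 61 days, and control 4 was level with the 61-day arrays. Of 8 direct-pathway genes 6 were lower (median -0.090), and of 8 indirect-pathway genes all 8 (median -0.10). Without control 1 these medians were 0.0069 and -0.0061. Of the direct-pathway genes, Eya1 had the smallest p among lower members, at -0.25, and Sfxn1 among higher ones, at 0.048, with its highest value on control 1. Of the indirect-pathway genes Grik3 had the smallest p, at -0.15. Control 1 was also the array on which all 68 hepatocyte genes were highest, and the part of the hepatocyte RNA in the lower values was not tested.

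Synaptic and receptor genes were mostly lowest on control 1 as well. All 14 synaptic vesicle genes were lower at 63 days (median -0.18), as were all 12 genes of GABA-A receptors and GABA synthesis (median -0.16) and 18 of 20 glutamate receptor genes (median -0.15), against a median of -0.012 over all genes. Without control 1, 13, 10 and 17 genes of these lists were still lower. Their medians were then -0.12, -0.032 and -0.055, against -0.00082 over all genes. The complexin Cplx1 was at 10.91, 11.18, 11.22 and 11.42 at 63 days and at 11.44, 11.51, 11.56 and 11.35 at 61 days, and the NMDA receptor subunit Grin2a at 10.20, 10.42, 10.48 and 10.83 at 63 days and 10.73, 10.93, 10.89 and 10.68 at 61 days. Gabrb2, a GABA-A receptor subunit, was at 10.77, 11.25, 11.13 and 11.37 at 63 days and 11.32, 11.46, 11.40 and 11.42 at 61 days. In all 3 genes control 1 was lowest and control 4 lay among the 61-day arrays. The differences were -0.28, -0.33 and -0.27, each with an adjusted p of 0.378. With the hepatocyte mean as a covariate they were -0.022, 0.0047 and 0.089, and the medians of the lists turned to 0.069, 0.11 and 0.078. The age groups did not overlap in that covariate, so these turns do not separate age group from hepatocyte RNA. Grin2c, of the same receptor family, differed by 0.0062.

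Markers of neighbouring regions were mixed. Slc17a7, the vesicular glutamate transporter of cortical neurons, was at 11.18, 11.04, 10.91 and 11.51 at 63 days and 11.30, 11.65, 11.49 and 11.41 at 61 days. Parvalbumin (Pvalb), of fast-spiking interneurons, was at 8.41, 8.58, 8.58 and 9.40 at 63 days and at 9.22, 9.58, 9.45 and 8.93 at 61 days, and controls 1 to 3 were below the other 5 arrays. Of 10 cortical genes 7 were lower (median -0.19), and the median was -0.16 without control 1 and 0.091 with the covariate. Of the higher cortical genes the one of smallest p, Cux2, differed by 0.024. Calretinin (Calb2), of interneurons and thalamus, was at 7.23, 6.96, 6.95 and 6.93 at 63 days and at 6.61, 6.83, 6.64 and 6.87 at 61 days, with no overlap and a difference of 0.28. Thalamic genes had a median of 0.046, with Ntng1 at -0.063. Septal, pallidal and hypothalamic genes also had one of 0.046, with oxytocin (Oxt) at 0.16 and Zic1 at -0.16. Of 12 interneuron genes 7 were lower (median -0.024). Of 10 choroid plexus and ependymal genes 9 were higher (median 0.091), with the folate receptor Folr1 at 0.16 and the chloride channel protein Clic6 at -0.047.

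Dopamine signalling was even over all 8 arrays, with 9 of 18 genes higher and a median of 0.0043. Without control 1, 12 of the 18 were higher (median 0.071), and with the hepatocyte mean as a covariate 15 (median 0.084). Tyrosine hydroxylase (Th), which makes dopamine's precursor, was at 7.84, 8.28, 8.13 and 7.92 at 63 days and 7.94, 7.80, 7.93 and 7.99 at 61 days, and the dopamine transporter Slc6a3 at 7.36, 7.34, 7.27 and 7.22 at 63 days and 7.25, 7.32, 7.09 and 7.24 at 61 days. Neither separated the age groups. The monoamine oxidase Maob, also a liver enzyme and liver-tracking here, was at 10.65, 9.40, 9.68 and 9.13 at 63 days and 9.21, 9.04, 9.07 and 9.09 at 61 days. Its relative Maoa was at 7.84, 8.03, 8.07 and 8.09 at 63 days and 8.13, 8.13, 8.28 and 8.18 at 61 days, lower with no overlap. The differences were 0.61 for Maob and -0.17 for Maoa.

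Oligodendrocyte, precursor and astrocyte genes were mostly lowest on B6 control 1, in 12 of 14, 7 of 8 and 10 of 12 cases, and microglial genes in 5 of 11. Of 14 oligodendrocyte and myelin genes 12 were lower at 63 days (median -0.24, and -0.065 without control 1). Myelin basic protein (Mbp) was at 11.69, 12.17, 12.40 and 12.22 at 63 days and 12.28, 12.23, 12.32 and 12.28 at 61 days, and Opalin, a myelin membrane protein, at 8.15, 8.86, 9.28 and 9.00 at 63 days and 9.27, 9.20, 9.32 and 9.26 at 61 days. Trf, which was among the 2 higher members, was at 13.22, 12.01, 12.58 and 11.51 at 63 days and 11.68, 11.57, 11.60 and 11.47 at 61 days, and it is liver-tracking. All 8 precursor genes were lower (median -0.13), among them the proteoglycan Cspg4 at -0.15, with no overlap. Of 12 astrocyte genes 10 were lower (median -0.098). The glial filament Gfap was at 8.49, 8.58, 9.06 and 8.75 at 63 days and 8.81, 8.87, 8.98 and 8.85 at 61 days, and S100b differed by -0.24. Agt, which is liver-tracking, was at 11.33, 9.16, 10.10 and 8.59 at 63 days and 8.31, 8.24, 8.46 and 8.23 at 61 days, and differed by 1.49. Of 11 microglial genes 7 were higher (median 0.025), with C1qc at 0.088 and P2ry12 at -0.14. Vessel genes split 7 to 7 (median 0.0043), with the potassium channel Kcnj8 at 0.14 and the efflux pump Abcb1a at -0.12.

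Activity-dependent genes were split between the directions over all 8 arrays, but mostly higher at 63 days without control 1. Of 18 immediate early genes 9 were higher at 63 days, and 3 higher and 1 lower had an unadjusted p under 0.05, against 6.32% and 6.65% of all genes. Fos was at 7.57, 7.48, 7.40 and 7.25 at 63 days and 7.41, 7.56, 7.24 and 7.58 at 61 days, Npas4 at 8.48, 9.27, 9.04 and 8.82 at 63 days and 8.91, 8.95, 8.61 and 9.33 at 61 days, and Arc at 9.34, 9.94, 9.98 and 9.87 at 63 days and 9.83, 9.88, 9.39 and 10.08 at 61 days. Each of these transcripts, induced by synaptic activity, varied more within each age group than the means of the groups differed. Egr1 was at 10.42, 10.95, 10.88 and 10.80 at 63 days and 10.67, 10.58, 10.44 and 10.84 at 61 days, with a difference of 0.13. Nr4a3, given above, and Jun were the members whose age groups did not overlap, as in 6.51% of all genes. Jun was at 8.11, 8.36, 8.34 and 8.37 at 63 days and 8.38, 8.60, 8.58 and 8.51 at 61 days, lower in the older mice, opposite to Nr4a3. The median of the list was 0.044, and 0.20 with the hepatocyte mean as a covariate. Without control 1, 15 of the 18 genes were higher, with a median of 0.12, against -0.00082 over all genes.

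Of 17 circadian genes 15 were lower at 63 days (median -0.086), and 13 had their lowest value on control 1. Without control 1, 10 of the 17 were lower (median -0.030). With the hepatocyte mean as a covariate 7 were lower (median 0.020). Per3 and Ciart, of the clock's repressing arm, were lower with no overlap of the age groups, as were 3.27% of all genes. Per3 was at 8.52, 8.86, 8.94 and 9.05 at 63 days and 9.10, 9.10, 9.17 and 9.22 at 61 days, and Ciart at 9.28, 9.76, 9.94 and 9.85 at 63 days and 10.04, 10.05, 10.13 and 10.13 at 61 days, with control 1 lowest in both. The differences were -0.30 and -0.38, and -0.076 and -0.16 with the hepatocyte mean as a covariate. The activator Arntl was at 8.55, 8.89, 8.86 and 8.84 at 63 days and 8.54, 8.49, 8.72 and 8.61 at 61 days, with controls 2 to 4 above every 61-day array and control 1 among them. Per1 was at 9.20, 9.79, 9.87 and 9.74 at 63 days and 9.72, 9.80, 9.59 and 9.83 at 61 days, Per2 at 8.70, 9.15, 9.13 and 9.04 at 63 days and 9.05, 8.89, 9.02 and 9.09 at 61 days, and Dbp at 9.81, 10.22, 10.28 and 10.24 at 63 days and 10.29, 10.24, 10.39 and 10.38 at 61 days. In these control 1 was again lowest and controls 2 to 4 lay within or close to the range of 61-day arrays. Time of killing is not given in the labels. Of 15 glucocorticoid-responsive genes 7 were higher (median -0.017), with the lipid droplet protein Plin4 at 0.21, Ddit4 at -0.14, Sgk1 at -0.050 and the FK506-binding protein Fkbp5 at -0.057.

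Genes of cholesterol synthesis, chaperones and interferon-stimulated genes were mostly higher at 63 days, with medians nearer 0 without control 1. Of 16 genes of cholesterol synthesis and uptake 15 were higher, with a median of 0.26, 0 at an unadjusted p under 0.05, and 0 with age groups that did not overlap. Sc5d, a late enzyme of cholesterol synthesis, was at 11.42, 10.04, 10.55 and 9.73 at 63 days and 9.73, 9.75, 9.75 and 9.74 at 61 days. Controls 1 to 3 were above the other 5 arrays, which lay between 9.73 and 9.75. Srebf2, the transcription factor that drives the pathway, was at 9.81, 10.09, 10.14 and 10.10 at 63 days and 10.11, 10.09, 10.22 and 10.18 at 61 days, lowest on control 1. The median of the list was 0.078 without control 1 and -0.24 with the hepatocyte mean as a covariate. Of 18 chaperones 13 were higher, 6 of them at an unadjusted p under 0.05, where 6.32% of all genes were. The age groups did not overlap in the endoplasmic reticulum proteins Hspa5, Hsp90b1, Pdia4, Pdia6, Calr and Manf, against 3.25% of all genes as higher. Hspa5 was at 11.65, 11.21, 11.30 and 11.12 at 63 days and 10.97, 10.85, 11.00 and 10.99 at 61 days, with a difference of 0.37 and of 0.035 with the covariate. The cytosolic chaperone Hsph1 was lower, at -0.15. All 10 interferon-stimulated genes were higher (median 0.17), 9 of them with their highest value on control 1. The age groups overlapped in each of them. The protease Usp18 was at 7.81, 7.14, 7.04 and 6.88 at 63 days and 6.92, 6.69, 6.68 and 6.83 at 61 days. Without control 1, 7 of the 10 genes were higher (median 0.057). With the hepatocyte mean as a covariate 9 were lower (median -0.15).

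**Figure D4:**
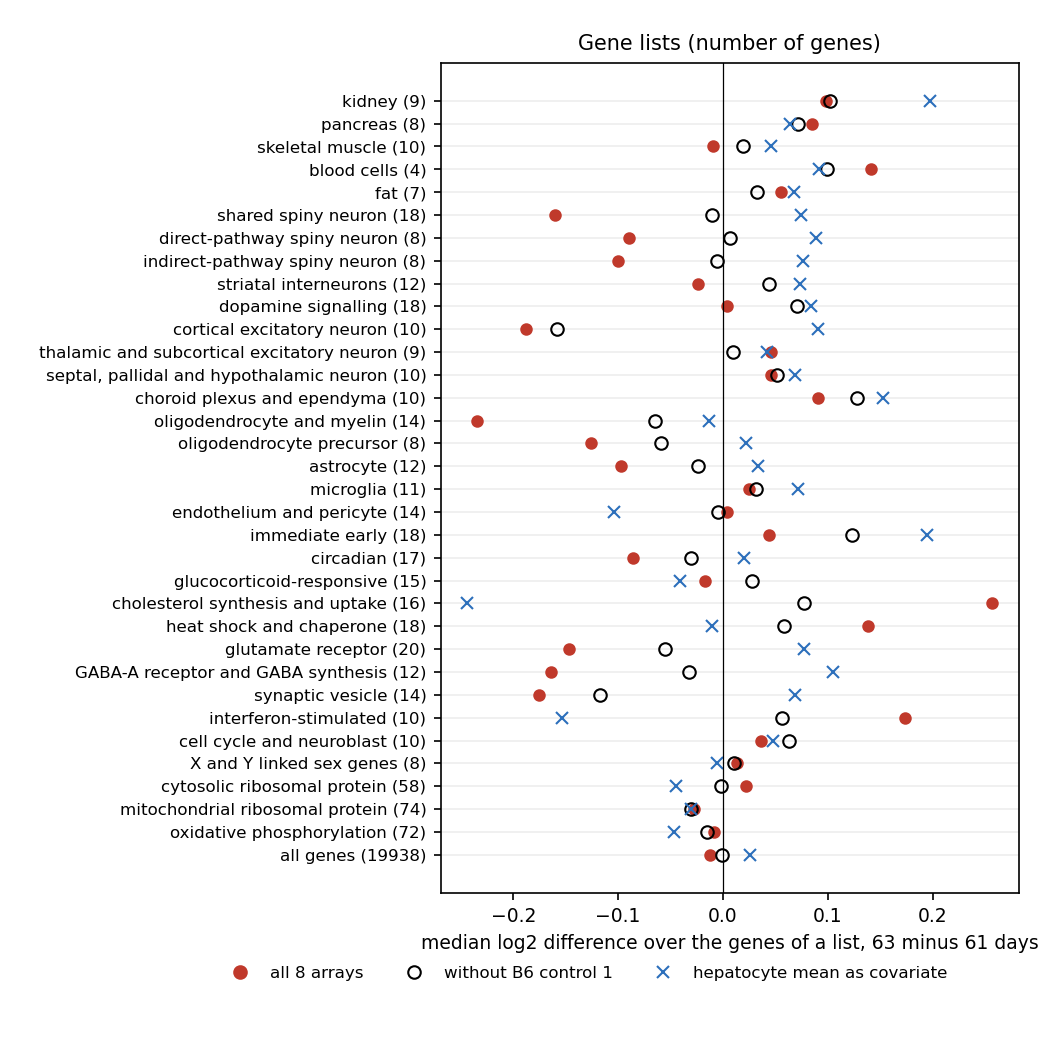
Median log2 difference (63 minus 61 days) over the genes of each list outside the hepatocyte lists, with all 8 arrays (filled), without B6 control 1 (open) and with the hepatocyte mean as a covariate (crosses). Medians for spiny neuron, synaptic and receptor genes lie below 0 with all 8 arrays, between -0.18 and -0.090, and are nearer 0 without B6 control 1.

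Markers of other organs differed by far less than those of hepatocytes. The kidney, pancreas and fat lists were dim, with means under 7 on each of the 8 arrays. Kidney genes were higher in 9 of 9 cases, with a median of 0.098, and the cadherin Cdh16 was at 6.88, 7.05, 6.79 and 6.83 at 63 days and 6.74, 6.73, 6.61 and 6.70 at 61 days. Pancreas genes were higher in 7 of 8 (median 0.085), with Cela3b at 0.18 and Cpb1 at -0.033. Skeletal muscle had 4 of 10 higher (median -0.0091), with Actn3 at 0.095. Fat had 7 of 7 higher (median 0.056), with Fabp4 at 6.20, 5.41, 5.57 and 5.37 at 63 days and 5.39, 5.43, 5.45 and 5.40 at 61 days. Blood cells had 3 of 4 higher (median 0.14), with S100a9 at 0.12 and Ngp at -0.0024. Of 58 cytosolic ribosomal proteins 37 were higher (median 0.022), with Rps18 at 0.27 and Rpl14 at -0.24. Of 74 mitochondrial ones 28 were higher (median -0.028), with Mrpl46 at 0.20 and Mrps36 at -0.33. Of 72 oxidative phosphorylation genes 35 were higher (median -0.0083), with Uqcr11 at 0.17 and Ndufb8 at -0.20. Cell cycle and neuroblast genes were higher in 6 of 10 (median 0.037), with Igfbpl1 at 0.11 and doublecortin (Dcx) at -0.22, lower with no overlap.

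Taking the hepatocyte mean as a covariate brought other genes to the front, none of which passed the test (smallest adjusted p 0.918). Higher at 63 days in that fit were Slc9b2, Osbpl3, G530011O06Rik, Slc35e3, Banp and Hbq1b, with differences of 0.35, 0.34, 0.74, 0.37, 0.35 and 0.33. Banp, a nuclear DNA-binding protein, was at 8.90, 9.06, 8.93 and 9.07 at 63 days and 8.77, 8.82, 8.70 and 8.84 at 61 days, and its age groups did not overlap. Osbpl3, an oxysterol-binding protein, was at 8.82, 9.14, 9.09 and 9.36 at 63 days and 9.01, 9.03, 9.08 and 9.09 at 61 days, so control 1 was lowest and control 4 highest. Without the covariate it differed by 0.053. Lower in that fit were Mir680-1, Mindy1, Cers2, Cnn2, Elf1 and Tnfsf10, with differences of -0.47, -0.35, -0.35, -0.31, -0.29 and -0.36. The ceramide synthase Cers2 was at 10.59, 10.09, 10.62 and 10.10 at 63 days and 10.19, 10.20, 10.32 and 10.27 at 61 days, and without the covariate differed by 0.10.

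Leaving out B6 control 1 called 0 genes among 19938, with 2437 at an unadjusted p under 0.05 (12.2%; 7.21% higher and 5.02% lower). Besides Spon2 and Nr4a3, the leading higher genes were Dusp14, Sik2, Gramd1c and Peli1. Gramd1c reached the correlation set for liver-tracking genes (0.80) but not the slope (0.13). With all 8 arrays it differed by 0.68, and by -0.050 with the hepatocyte mean as a covariate. The phosphatase Dusp14 was at 10.57, 11.00, 10.95 and 10.97 at 63 days and 10.64, 10.67, 10.50 and 10.69 at 61 days, and the kinase Sik2 at 9.87, 10.09, 10.24 and 10.15 at 63 days and 9.80, 9.67, 9.85 and 9.95 at 61 days. In both, controls 2 to 4 were above every 61-day array while control 1 was not. Without control 1 the differences were 0.35 for Dusp14, 0.32 for Sik2, 0.37 for Gramd1c and 0.26 for the ubiquitin ligase Peli1. The leading lower genes were Mir411, BC029722, Snf8, Mir369, Ciart and Cd46. Cd46, a membrane regulator of complement, was at 7.41, 7.92, 7.92 and 8.11 at 63 days and 8.27, 8.27, 8.36 and 8.35 at 61 days, and without control 1 differed by -0.34.

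The difference between age groups was also compared between the sexes, with 2 arrays for each sex and age. By limma's interaction term 0 genes were called, the smallest adjusted p was 0.983, and 327 genes (1.64%) had an unadjusted p under 0.05, 0.762% with a positive and 0.878% with a negative term. The leading genes were Polr3e, Ifi214, Acrv1, Olfr17 and Prr23a1. Polr3e, a subunit of RNA polymerase III, was at 8.60, 8.68, 9.08 and 9.08 at 63 days and 8.95, 8.97, 8.81 and 8.88 at 61 days, so that the older females were lower and the older males higher than their counterparts. The difference in males minus that in females was 0.55 for Polr3e, -0.84 for Ifi214, -0.55 for Acrv1, -0.45 for Olfr17 and -0.51 for Prr23a1. Without control 1 the pituitary hormone prolactin (Prl) was called, at -1.74 (SE 0.11, adjusted p = 0.0461), with the lone female at 63 days assumed to vary like the other groups. Prl was at 7.03, 7.83, 6.09 and 6.17 at 63 days, against 6.02, 5.98, 5.98 and 6.12 at 61 days, so both older females were above the other 6 arrays.

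Y-linked genes followed the sex labels, while Xist on the male control 3 lay between the other male B6 controls and the females. The Y-linked Eif2s3y was at 4.73, 5.06, 9.13 and 9.41 at 63 days and 4.81, 4.93, 9.36 and 9.21 at 61 days. Xist, the RNA that silences an X chromosome in females, was at 11.82, 11.74, 9.43 and 7.18 at 63 days and at 11.80, 11.64, 7.25 and 6.86 at 61 days, females first in each group. In batch 2 females Xist lay between 11.58 and 11.86. The male control 3 was at 9.43, while the male control 4 was at 7.18 and the male controls 7 and 8 at 7.25 and 6.86. Among the 4 homozygous congenic males Xist was at 8.20, 8.11, 9.11 and 7.69, and their hepatocyte means were 8.31, 7.95, 8.76 and 7.39. Male arrays with more hepatocyte RNA mostly had higher Xist values, and the part of that RNA in them was not tested. Over the 8 sex-linked genes of the list 6 were higher at 63 days (median 0.013). The histone demethylase Kdm6a, which escapes X inactivation, was at 9.04, 9.16, 8.94 and 8.95 at 63 days and 9.35, 9.41, 9.13 and 9.05 at 61 days.

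**Figure D5:**
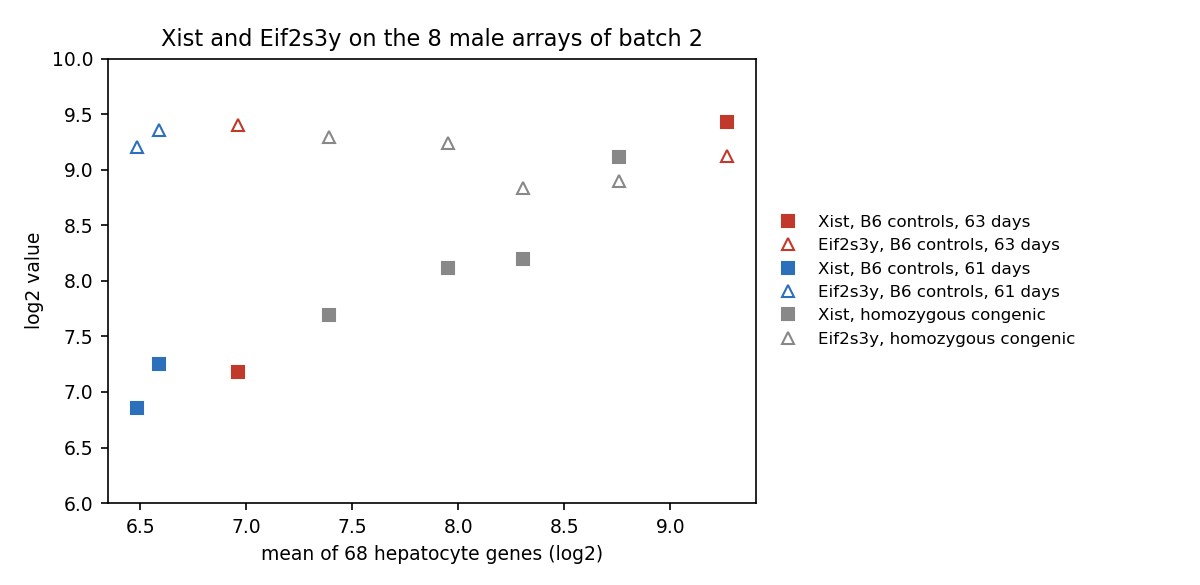
Log2 values of Xist (squares) and the Y-linked Eif2s3y (triangles) against the mean of 68 hepatocyte genes on the 8 male arrays of batch 2. Xist ran from 6.86 on the array of lowest hepatocyte mean to 9.43 on that of the highest, while Eif2s3y stayed between 8.84 and 9.41.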

How the data were processed

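Striatal RNA of 28 mice, 1 array each, was hybridised to the Mouse Gene 1.0 ST platform. Per the submitters' processing notes, the authors made the deposited log2 values by RMA with Affymetrix Expression Console (version not given in the sources used here). Per the deposited notes, a kill list masked probes over coding SNPs of the congenic region, and ComBat then removed the batch difference. The values were used as deposited. Of 35556 clusters 21789 have 1 gene symbol, 1621 several and 12146 none. For each gene the single-symbol cluster of highest mean over 28 arrays was taken, which left 19938 genes, 999 of them with several clusters.

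The 4 B6 controls at 63 days were compared with the 4 at 61 days by limma 3.58.1 (lmFit and eBayes, 2-sided, sex as a term) in R 4.3.3, with Benjamini-Hochberg adjustment over all 19938 genes and a threshold of 0.05. The interaction with sex came from a model of age group by sex. The steps were tested on simulated data for the same genes. Alternatives were single omissions of mice, other sets of arrays, the mean of 68 hepatocyte genes as a covariate, other normalization, weights and filters. The groups, lists and tests were chosen with earlier results of these data known, so no list is independent evidence.

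Named were the 8 genes of smallest p in each direction (mean at least 7, liver genes left out), up to 6 in each direction with the hepatocyte covariate and without B6 control 1, and 5 by sex. From each list came the member of smallest p in each direction, and a fixed set of striatal, activity, circadian, glial, sex and liver genes was always named. The Dlk1 to Dio3 interval, Prl, the lists of sex-biased liver genes and the genes of the largest and smallest differences were singled out after their values were seen. MicroRNA sequences are from RefSeq (GRCm38.p6), with both loci matched by symbol.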

Additional observations from a re-analysis of the deposited data

Results flagged for a closer look

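Among 242 groups of 4 arrays looked at, 17 held an array that stood apart from the rest of its group by Dixon's test at the 95% level. Chance flags about 1 in 20 groups, and the causes were not tested. Of the 17, 10 were B6 control 1, the array with the most hepatocyte RNA, 3 were control 6, 2 control 5 and 2 control 7.

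At 63 days control 1 was high for 2 genes. Gramd1c, which encodes a sterol-binding protein of the endoplasmic reticulum, was at 8.46, while controls 2 to 4 spanned 7.04 to 7.28. Calb2 was at 7.23, while the others spanned 6.93 to 6.96. Control 1 was low for 8 genes. Among spiny neuron genes, Tac1 was at 10.88 with the others between 11.53 and 11.64, and Grik3, a kainate receptor subunit, at 9.69 with the others between 10.12 and 10.15. Of clock genes, Arntl was at 8.55, under 8.84 to 8.89, and Dbp at 9.81, under 10.22 to 10.28. Jun was at 8.11, under 8.34 to 8.37, Srebf2 at 9.81, under 10.09 to 10.14, Dusp14 at 10.57, under 10.95 to 11.00, and Snf8 at 8.36, under 8.48 to 8.49.

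At 61 days control 6 was low for 3 genes. Tmem267 was at 9.21 with the others between 9.53 and 9.59. Drd2 was at 11.50 with the others between 11.71 and 11.74, and Ppp1r1b at 11.98 with the others between 12.16 and 12.18. Control 5 was high for Cps1, at 7.20 above 6.64 to 6.72, and for Pdyn, at 8.38 above 8.09 to 8.14. Control 7 was high for Cnn2, at 7.18 above 7.06 to 7.08, and for the interferon-inducible Ifi214, at 5.56 above 5.26 to 5.30.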

How the results depend on the processing

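No gene was called under any single omission of a mouse, with the hepatocyte mean as a covariate, over the 16 arrays of batch 2 with or without that covariate, without the sex term, after another quantile normalization, with array weights, with genes of mean at least 7 only, with a trended robust prior, or with the mean of all clusters of a gene. The same held in the settings chosen after seeing the data, namely without B6 controls 1 and 3, without 1, 2 and 3, and without hepatocyte and liver-tracking genes. Without control 4 the smallest adjusted p was 0.0512. The fit to 28 arrays called 233 genes, the exception. Higher genes at an unadjusted p under 0.05 numbered 1260 with all 8 arrays and 564 to 1782 without 1 mouse (685, 564, 600 and 667 without controls 3, 5, 6 and 7). They numbered 539 with the hepatocyte mean, 502 with it over 16 arrays, 604 after quantile normalization, 1991 with array weights, 554 among genes of mean at least 7 and 623 without controls 1, 2 and 3. Lower genes numbered 1325, and 474 to 2654 without 1 mouse (2654, 553, 2103, 588, 474 and 674 without controls 2 to 7). They numbered 442 with the hepatocyte mean, 344 with it over 16 arrays, 2390 over 28 arrays, 583 without controls 1 and 3 and 431 without 1, 2 and 3. Genes whose age groups did not overlap ranged from 805 to 1792 higher and from 790 to 2838 lower without 1 mouse, the most in both directions without control 4, and 341 were higher among genes of mean at least 7. A gene without overlap over all 8 arrays stays so when 1 is left out. Counts without 1 mouse could therefore only rise, and are not comparable with those of all 8 arrays. Of the interaction with sex 0 to 1 genes were called without 1 mouse, the 1 being Prl without control 1. A correlation of at least 0.9 or 0.7 in place of 0.8 gave 394 or 509 liver-tracking genes. The cause of the other shifts was not tested. Of 120 named genes 57 kept their direction in every setting. The others turned in 1 or more settings, among them genes of large difference over all 8 arrays such as Agt (1.49), Trf (0.75) and Sc5d (0.69). With the hepatocyte mean as a covariate the log2 difference turned for Slc35e3 at 0.37, Mindy1 at -0.35, Cers2 at -0.35, Elf1 at -0.29, Tnfsf10 at -0.36, Gramd1c at -0.050, Polr3e at 0.11, Cpb1 at 0.0042, Pvalb at 0.045, Ngp at 0.056, Fabp4 at -0.26, Arpp21 at 0.041, Sfxn1 at -0.085, Eya1 at 0.095, Grik3 at 0.038, Maob at -0.27, Ntng1 at 0.056, Clic6 at 0.12, Trf at -0.32, Agt at -0.27, S100b at 0.071, C1qc at -0.066, P2ry12 at 0.077, Abcb1a at 0.013, Ddit4 at 0.019, Sc5d at -0.35, Hsph1 at 0.16, Grin2a at 0.0047, Gabrb2 at 0.089, Usp18 at -0.019, Xist at -0.13, Rps18 at -0.041, Drd1 at 0.18, Drd2 at 0.11, Penk at 0.076, Tac1 at 0.18, Ppp1r1b at 0.029, Npas4 at 0.20, Arc at 0.28, Per1 at 0.18, Per2 at 0.14, Sgk1 at 0.048 and Mbp at 0.032. With it over 16 arrays it turned for Slc35e3 at 0.35, Mindy1 at -0.22, Cers2 at -0.19, Elf1 at -0.14, Tnfsf10 at -0.17, Polr3e at 0.070, Acrv1 at -0.013, Pvalb at 0.16, Ngp at 0.034, Fabp4 at -0.11, Sfxn1 at -0.050, Grik3 at 0.050, Maob at -0.16, Slc17a7 at 0.16, Ntng1 at 0.094, Trf at -0.27, Agt at -0.22, S100b at 0.010, C1qc at -0.15, P2ry12 at 0.018, Sc5d at -0.091, Srebf2 at 0.026, Hsph1 at 0.062, Grin2a at 0.068, Gabrb2 at 0.036, Cplx1 at 0.015, Usp18 at -0.012, Dcx at 0.069, Xist at -0.23, Npas4 at 0.19, Arc at 0.26, Per1 at 0.058, Per2 at 0.041, Mbp at 0.015 and Gfap at 0.039. With array weights it turned for Slc35e3 at 0.032, Mindy1 at -0.011, Tnfsf10 at -0.037, Clic6 at 0.071, Drd1 at 0.058, Drd2 at 0.022, Penk at 0.014, Fos at 0.0063, Npas4 at 0.17, Arc at 0.17, Per1 at 0.061, Per2 at 0.081 and Sgk1 at 0.029. After quantile normalization it turned for Slc9b2 at -0.0013, Tnfsf10 at -0.055, Actn3 at -0.00044, Pdyn at -0.0021, Slc6a3 at -0.0022, Arc at 0.033, Per2 at 0.011, Sgk1 at 0.0040 and Eif2s3y at -0.0097. With the mean of all clusters it turned for Ntng1 at 0.0019. Without B6 controls 1 and 3 it turned for Slc35e3 at 0.18, Mindy1 at -0.14, Cers2 at -0.15, Elf1 at -0.095, Tnfsf10 at -0.17, Ngp at 0.031, Fabp4 at -0.025, Sfxn1 at -0.0098, Clic6 at 0.065, Hsph1 at 0.012, Drd1 at 0.083, Drd2 at 0.025, Penk at 0.023, Tac1 at 0.0086, Npas4 at 0.095, Arc at 0.11, Per1 at 0.029 and Per2 at 0.081. Without B6 controls 1, 2 and 3 it turned for Slc35e3 at 0.35, Mindy1 at -0.25, Cers2 at -0.20, Elf1 at -0.16, Tnfsf10 at -0.30, Polr3e at 0.24, Acrv1 at -0.14, Prr23a1 at -0.067, Cpb1 at 0.0032, Pvalb at 0.21, Ngp at 0.041, Fabp4 at -0.057, Sfxn1 at -0.067, Slc17a7 at 0.060, Ntng1 at 0.043, Trf at -0.020, C1qc at -0.035, P2ry12 at 0.022, Sc5d at -0.011, Hsph1 at 0.054, Grin2c at -0.046, Grin2a at 0.039, Pdyn at -0.0044, Th at -0.042, Arc at 0.13, Per1 at 0.031 and Sgk1 at 0.012. Without 1 mouse the differences ranged from -0.034 to 0.12 for Slc9b2, from -0.019 to 0.14 for Osbpl3, from -0.13 to 0.085 for Slc35e3, from -0.044 to 0.18 for Mindy1, from -0.0049 to 0.22 for Cers2, from -0.12 to 0.027 for Cnn2, from -0.098 to 0.12 for Tnfsf10, from -0.11 to 0.029 for Polr3e, from -0.11 to 0.12 for Ifi214, from -0.071 to 0.039 for Olfr17, from -0.056 to 0.00055 for Cpb1, from -0.022 to 0.019 for Ngp, from -0.037 to 0.094 for Cux2, from -0.16 to 0.061 for Clic6, from -0.034 to 0.046 for Grin2c, from -0.18 to 0.072 for Drd1, from -0.21 to 0.043 for Drd2, from -0.15 to 0.021 for Penk, from -0.076 to 0.15 for Pdyn, from -0.072 to 0.065 for Fos, from -0.21 to 0.11 for Npas4, from -0.19 to 0.15 for Arc, from -0.17 to 0.067 for Per1, from -0.091 to 0.089 for Per2, from -0.14 to 0.054 for Sgk1 and from -0.062 to 0.067 for Eif2s3y. No paired analysis was possible because the age groups share no replicate numbers, being numbered 1 to 4 and 5 to 8. The number of arrays, 4 a group, limits the precision, and dim genes have little signal over background.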

Other observations

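Mouse liver differs between the sexes in some cytochromes and sulfotransferases, so genes of either kind were read on the same arrays. Both lists were chosen after the data had been seen, and paralogs may share probes. All 8 female-predominant liver enzymes were higher at 63 days, 6 of them liver-tracking, and their mean was 7.93, 5.85, 6.46 and 5.21 on B6 controls 1 to 4, against 5.21, 5.07, 4.97 and 4.99 on controls 5 to 8. Of the 8 B6 controls, the male control 3 was second only to control 1. The female-predominant cytochrome Cyp2b9 was at 9.28 on control 3, and at 8.60 and 9.17 on the homozygous congenic males 3 and 7. All 7 male-predominant genes were also higher at 63 days, 1 of them liver-tracking, with means of 6.75, 5.98, 6.21 and 5.87 at 63 days and 5.88, 5.85, 5.75 and 5.76 at 61 days. The median slope on the hepatocyte mean over the homozygous congenic arrays was 0.596 for the female-predominant and 0.151 for the male-predominant genes. What these values mean for the source of the hepatocyte RNA was not tested.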
